A study of Mus musculus with 25 samples.

Results

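The extracellular matrix genes described here are the collagens, the laminins, the matrix metalloproteinases with their tissue inhibitors, and 4 genes that accompany them, Sparc, Postn, Serpinh1 and Fn1. They were chosen by gene symbol: a probe was taken where the platform annotation gave it 1 gene and that symbol was a numbered collagen chain, a numbered Lama, Lamb, Lamc, Mmp or Timp gene, or 1 of 5 named genes. The rule found 66 genes, on 67 probes, of the 13832 genes that 14401 probes with 1 gene represent. Fbn1, named in the rule, and Col6a3, Lamc1 and Timp1, which its patterns cover, have no probe with that name in the annotation used here. Col23a1 has 2 probes, and its brighter probe stands for it. By role the set holds 9 fibrillar collagens, 6 collagen IV chains, 7 collagen VI and other microfibril or network chains, 6 fibril-associated collagens and 6 multiplexin or transmembrane collagens. It also holds 7 laminin chains, 18 matrix metalloproteinases, 3 tissue inhibitors, and the 4 accompanying genes.

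Collagens and laminins form the framework outside cells. Fibrillar collagens, made mainly by fibroblasts, assemble from coiled chains into the fibres that give a tissue tensile strength. Collagen IV and the laminins build the basement membrane, the sheet that lies under epithelia and endothelia and around every muscle fibre, adipocyte and nerve. Matrix metalloproteinases cut these proteins, and the tissue inhibitors of metalloproteinases block the enzymes. In adipose tissue this cutting and rebuilding accompanies fat cell growth, in liver matrix build-up is the hallmark of fibrosis, and in muscle the collagen sheaths carry force to the tendon.

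The study profiled congenic B6.C-D7Mit353 mice and mice of the background C57BL/6J, written B6 below. Its title calls the congenic a lean strain, its labels give it as homozygous, and its name carries a marker on chromosome 7. No source used here gives the extent of the donated segment or the animals' sex, age and diet, and no other allele or treatment is stated. Total RNA of brain, liver, gonadal white fat and the gastrocnemius, a calf muscle, was read on 1-colour chemiluminescence arrays. There are 8 groups of 3 arrays, 1 group for each strain in each of 4 tissues, called biological triplicates in the series design. A 25th array, a further congenic brain, entered alternatives only. Titles of liver, fat and muscle arrays share some numbers, which may name a shared animal.

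Each array detected between 13115 and 18236 of 32996 probes, where detected means that signal exceeded noise 3-fold or more, in the deposited ratio. Of the matrix genes, 32 to 36 were detected on a brain array, 22 to 31 on a liver array, 35 to 43 on a fat array and 30 to 40 on a gastrocnemius array. The arrays carried the markers of their labelled tissue. Alb, the serum albumin gene, averaged 21.40 on the normalised log2 scale in liver, Ckm, muscle creatine kinase, 20.40 in gastrocnemius, Fabp4, the adipocyte fatty acid carrier, 20.28 in fat, and Mbp, myelin basic protein, 17.49 in brain. The Snap25 probe, for a neuronal synapse gene, was detected on no brain array. The gonadal fat arrays also carried genes of testis and epididymis. Taken as a deviation from the 6 fat arrays' mean, the list of these genes stood at -5.09 log2 units on congenic fat replicate 1 and from -0.16 to 1.75 on the other arrays. For the matrix genes this array and B6 gastrocnemius replicate 2 stood apart from their tissue, and congenic liver replicate 2 carried pancreatic genes. Strain counts and medians of these tissues are given with and without these arrays. Differences of the named genes still tested are given both ways in fat and gastrocnemius, but not in liver. Levels below are normalised log2 signals, for which the 24 arrays were background corrected and quantile normalised together. A difference of 1 is a 2-fold change, and levels were compared only within a probe.

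In total, 48 of the 66 genes were detected on at least 3 of the 6 arrays of some tissue, 20 of them in all 4 tissues, and 13 on every one of the 24 arrays. Of these 48 genes, 29 had their highest mean in gonadal fat, 8 in brain, 6 in liver and 5 in gastrocnemius. Fat also passed the most genes by the detection rule, 41 against 34 in brain, 25 in liver and 33 in gastrocnemius. Of all probes it passed 17624, against 16908, 13956 and 13252 in that order. Genes that passed in fat only entered because they were high there, so the count of highest means is a description. No share over all probes was set beside it. Another 18 genes met this detection rule in no tissue. Col6a6, Col9a2, Mmp20 and Mmp21 were detected on 0 of 24 arrays, which says only that these probes were not above background. The chemiluminescent signal of bulk tissue cannot tell fewer cells of a type apart from less RNA per cell.

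**Figure D1:**
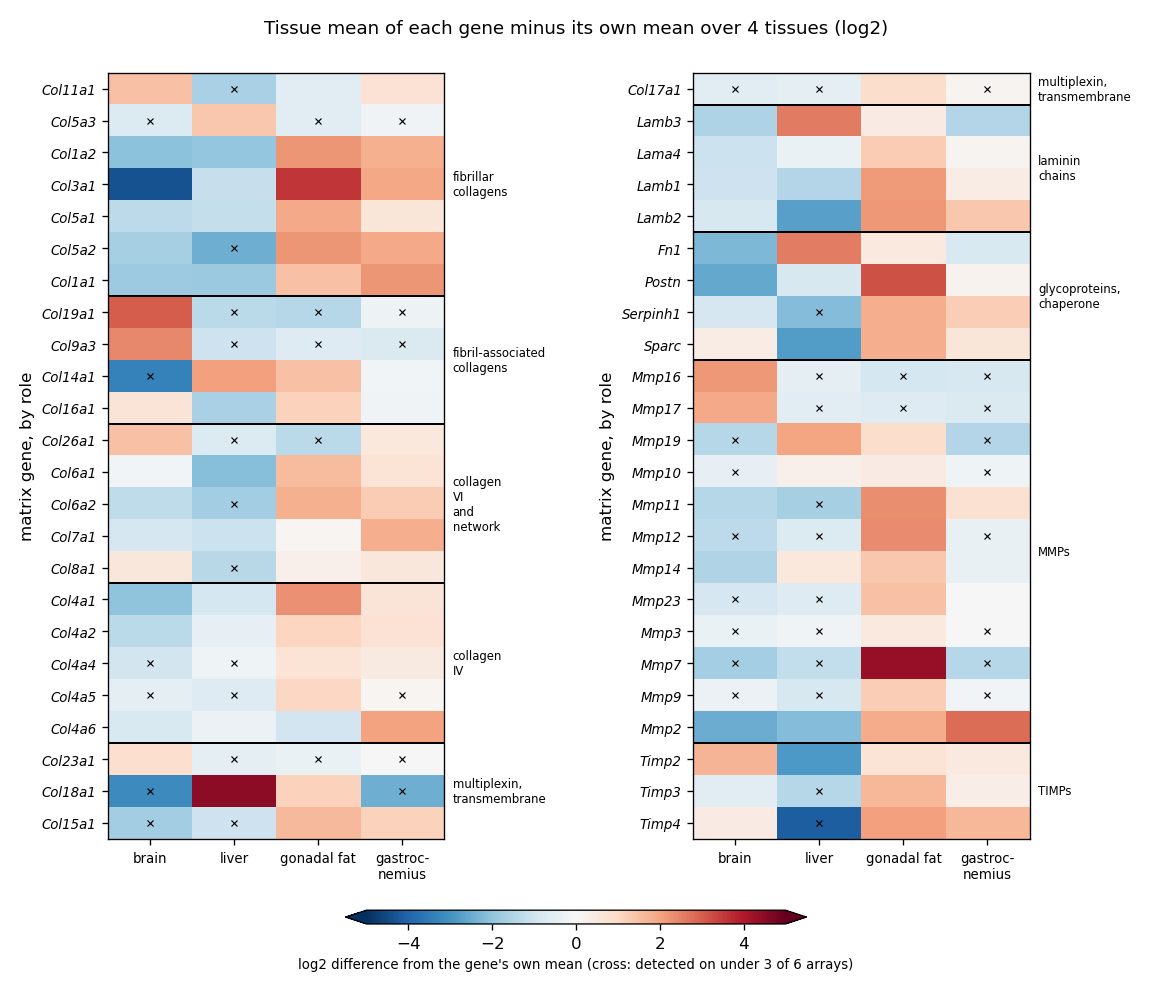
Heat map of the 48 matrix genes detected on at least 3 of 6 arrays in some tissue. Each cell is the tissue mean (6 arrays, both strains) minus the gene's own mean over 4 tissues, on the log2 scale, and crosses mark tissues where the gene was detected on under 3 of 6 arrays. Most rows are red under gonadal fat, Col18a1, Lamb3 and Fn1 are red under liver, and Col19a1, Col9a3, Mmp16 and Mmp17 are red under brain.

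Which tissue expressed which part of the matrix was asked by comparing every pair of tissues, averaged over the strains. Gonadal fat and gastrocnemius exceeded brain and liver for most of the genes tested. Against liver, 33 of 42 tested matrix genes were higher in fat and 6 were higher in liver. Among all probes of that comparison 57.7% were called, 34.3% higher in fat and 23.4% in liver, at a limma adjusted p under 0.05. Against brain, 33 of 47 genes were higher in fat and 8 were higher in brain, where 61.3% of all probes were called, 32.3% and 29% in these directions.

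In gastrocnemius the count was 25 of 38 genes above brain and 7 below it, where 68.2% of all probes were called, 32.2% and 36% in those directions. Against liver, 25 of 37 genes were higher in gastrocnemius and 7 in liver, where 66.7% of all probes were called, 35.2% and 31.5% in those directions. Fat exceeded gastrocnemius for 22 of 42 genes and lay below it for 5, where 59.5% of all probes were called, 35% and 24.5% in those directions. Brain and liver differed for 28 of 39 genes, 16 higher in brain and 12 higher in liver. Of all probes 71.5% were called there, 38.5% and 33% in those directions, so the matrix genes' count was close to the background.

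The median difference of the tested matrix genes was -2.70 log2 units for liver minus fat, while the median over all tested probes was -0.22. It was -2.29 for brain minus fat, with -0.12 over all probes. For brain minus liver it was 0.24, with 0.14 over all probes, ranging from 0.13 without B6 liver replicate 2 to 0.52 without B6 liver replicate 3, and it was -0.15 over the 13 genes detected on every array of both tissues, with -0.16 over all probes so detected. These counts and medians are descriptions. A gene detected in only 1 of the 2 tissues of a pair entered the test because it was high there. Among genes detected on all arrays of both tissues, 18 of 19 differed between liver and fat (59.7% of all probes so detected), 15 of 18 between brain and fat (60.6%), 15 of 22 between fat and gastrocnemius (65.1%) and 9 of 13 between brain and liver (71.3%). Markers of other cell types moved with the tissues too: 6 of 7 tested fibroblast markers, 7 of 7 endothelial, 8 of 8 mesothelial and 10 of 10 testis and epididymis markers were higher in fat than in brain. Their part in the matrix differences was not tested.

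The main fibrillar collagens were high in fat and gastrocnemius and low in brain and liver. Of the fibrillar chains tested, 6 of 7 were higher in fat than in liver, 6 of 7 were higher in gastrocnemius than in liver, and 5 of 6 were higher in fat than in brain. Among all probes 34.3%, 35.2% and 32.3% were called in these directions. Col1a2, which encodes a chain of type I collagen, ran from 16.60 to 17.33 on the 6 fat arrays with a median of 16.87, and from 15.99 to 17.45 in gastrocnemius with a median of 16.34. On the brain arrays it ran from 11.82 to 13.39 with a median of 12.65, and on the liver arrays from 12.38 to 13.02 with a median of 12.77. The arrays of fat and muscle overlapped with each other and lay far above every brain and liver array. Fat exceeded liver 17.9-fold (liver minus fat -4.16, SE 0.21, limma adjusted p = 4.4e-14), and fat and gastrocnemius did not pass the test (0.43, SE 0.21, adjusted p = 0.085).

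Col3a1, the type III collagen of loose connective tissue and vessel walls, had the widest span. Its signal ran from 17.94 to 19.09 in fat (median 18.50), 16.07 to 19.09 in gastrocnemius (median 16.55), 12.91 to 14.46 in liver (median 13.87) and 9.91 to 12 in brain (median 10.39). Brain lay below every other tissue without overlap, and liver below fat and gastrocnemius. Brain was 248-fold below fat (log2 difference -7.95, SE 0.39, adjusted p = 2.6e-14) and 9.20-fold below liver (-3.20, SE 0.39, adjusted p = 1.2e-07). Unlike Col1a2, Col3a1 was also higher in fat than in gastrocnemius (1.64, SE 0.39, adjusted p = 0.0011). The top gastrocnemius value, 19.09, came from B6 replicate 2, an array described further below, and the next gastrocnemius array was at 17.05. Without it fat minus gastrocnemius was 2.08.

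Col1a1, the partner chain of Col1a2, averaged 13.69 ± 0.29 (SD, n = 6) in fat and 14.45 ± 0.74 in gastrocnemius. Brain and liver averaged 10.41 ± 0.88 and 10.39 ± 0.78, and 1 array of each did not detect it. Col5a1 and Col5a2, chains of the type V collagen that starts fibrils, averaged 14.53 and 13.87 in fat, 13.25 and 13.56 in gastrocnemius, and 11.31 and 10.01 in brain. The Col5a2 probe was not above background on any liver array, so fat exceeded liver by at least 25-fold. Here and below, "at least" sets a detected mean against signals under the noise threshold. It is an estimate close to the fitted fold, not a strict lower limit.

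A pair of fibrillar chains went another way. Col11a1, a type XI chain best known from cartilage, was highest in brain, at 10.95 ± 0.32, against 10.23 ± 0.67 in gastrocnemius and 8.92 ± 0.67 in fat, and no liver array detected it. Brain exceeded fat 4.08-fold (adjusted p = 3.8e-06). Brain and gastrocnemius differed by 0.71 (SE 0.31, adjusted p = 0.042), a call that was lost without congenic brain replicate 1, without any 1 of the 3 B6 brain arrays, and without gastrocnemius B6 replicates 2 or 3 or congenic replicate 3. The adjusted p without each of these arrays ran from 0.058 (B6 brain replicate 1) to 0.13 (congenic gastrocnemius replicate 3), and the call was also lost with no filter on detection (adjusted p = 0.065). Col5a3 was highest in liver, at 10.92 ± 0.51, where 4 of 6 arrays detected it, against 1 in brain, 1 in fat and 0 in gastrocnemius.

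**Figure D2:**
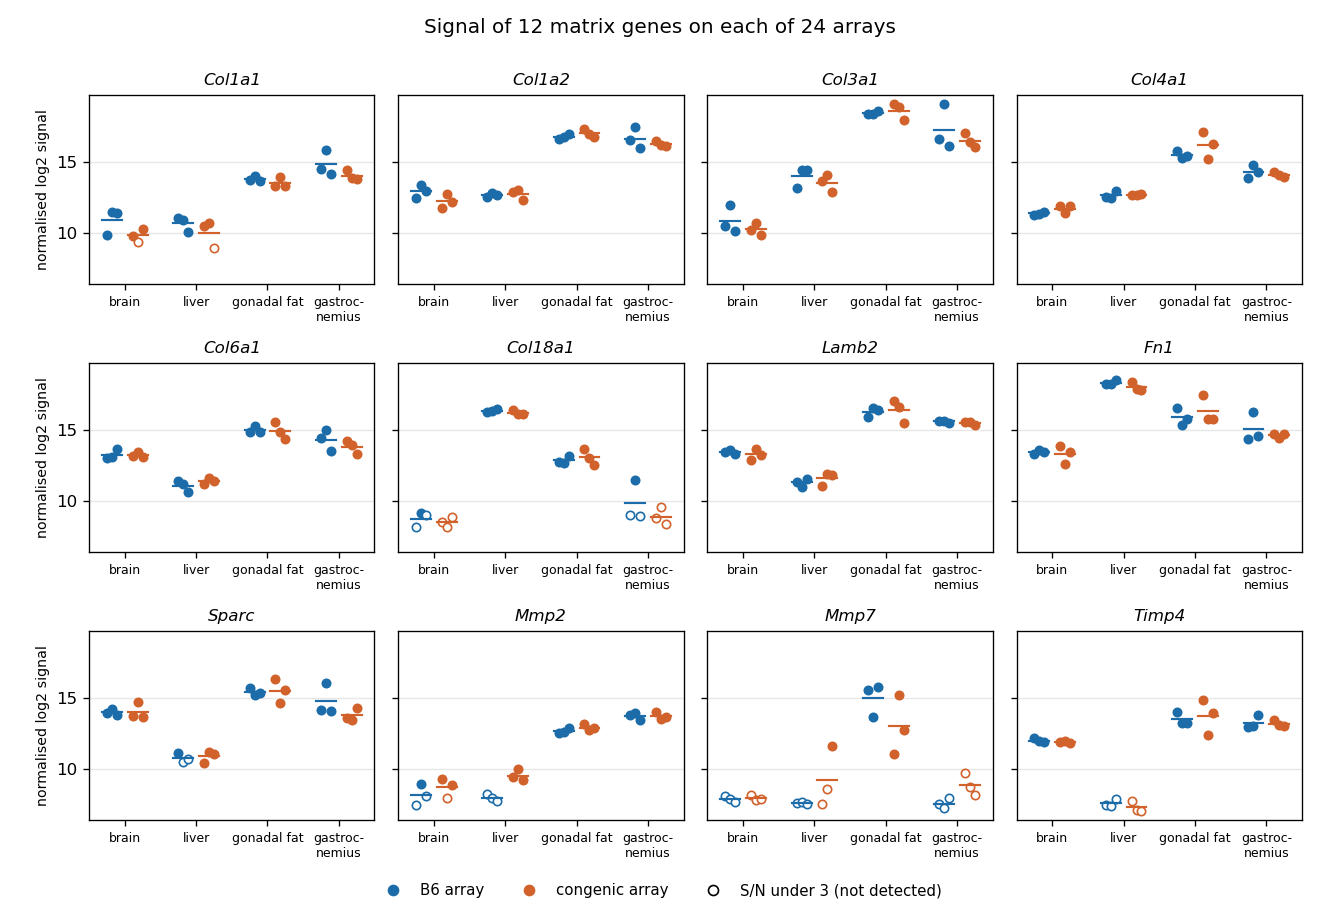
Normalised log2 signal of 12 matrix genes on each of the 24 arrays, by tissue. Each point is 1 array (blue B6, orange congenic), open points have a signal to noise ratio under 3, and bars are the mean of 3 arrays. Col1a2 and Col3a1 separate fat and gastrocnemius from brain and liver, Col18a1 and Fn1 are highest in liver, and the Mmp7 probe is spread from 11.08 to 15.76 in fat.

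Since Col1a2 and Col3a1 shared the high levels in fat and muscle, the 250 bases before the start site of each are printed here, with those of Mmp7, which was detected mainly in fat. They were chosen for display after the levels were known. The windows come from RefSeq on build GRCm38.p6, whose table matched 50 of the 66 genes in 58 windows. Both strands were searched for the CCAAT box and for the TATA box in the form TATAAA. The third motif was the AP-1 site TGACTCA, whose letters on the other strand read TGAGTCA. Capitals mark the matches. Col1a2 is at chr6:4505368-4505617, plus strand, Col3a1 at chr1:45311288-45311537, plus strand, and Mmp7 at chr9:7691840-7692089, plus strand, the first of its 2 windows.
Col1a2: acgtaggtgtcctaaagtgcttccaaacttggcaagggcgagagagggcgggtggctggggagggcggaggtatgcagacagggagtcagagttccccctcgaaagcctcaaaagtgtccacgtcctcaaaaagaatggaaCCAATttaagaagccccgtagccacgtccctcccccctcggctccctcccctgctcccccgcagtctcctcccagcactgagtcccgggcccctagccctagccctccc
Col3a1: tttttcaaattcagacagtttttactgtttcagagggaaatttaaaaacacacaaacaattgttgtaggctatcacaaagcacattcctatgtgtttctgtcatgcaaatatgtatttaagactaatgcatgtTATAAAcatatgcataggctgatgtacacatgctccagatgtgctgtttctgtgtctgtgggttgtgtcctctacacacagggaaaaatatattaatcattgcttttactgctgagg
Mmp7: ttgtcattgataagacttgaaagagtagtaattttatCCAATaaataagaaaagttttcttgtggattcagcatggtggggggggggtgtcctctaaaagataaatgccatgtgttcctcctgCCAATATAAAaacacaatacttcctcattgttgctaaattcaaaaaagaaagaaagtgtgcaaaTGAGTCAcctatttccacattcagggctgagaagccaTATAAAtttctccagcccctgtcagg
The Col1a2 window is rich in G and C (62.0%) and holds CCAAT from 109 to 105 bases before the start. That of Col3a1 is poor in them (35.2%) and holds TATAAA from 117 to 112 bases before the start. The Mmp7 window (38.0% G and C) holds CCAAT from 213 to 209 and from 127 to 123 bases before the start. It has TATAAA from 123 to 118, which shares 1 base with the second CCAAT, and from 26 to 21, and the AP-1 letters from 63 to 57. Of all 32851 windows, 33.8% hold the CCAAT letters, 12.4% the TATA box letters and 4.46% the AP-1 letters. Among the matrix gene windows these counts were 17, 14 and 8 of 58. A match is a description of the letters and not evidence of a bound factor.

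Col4a1 was highest in fat and Col4a6 in gastrocnemius, and the other 3 tested collagen IV chains did not pass the test between those tissues. Of 5 tested chains, 4 were higher in fat than in brain and 4 higher in fat than in liver, while Col4a3 was not tested in these pairs. Among all probes 32.3% and 34.3% were called in these directions. Col4a1 and Col4a2 encode the chains of the common basement membrane network. They lie head to head on chromosome 8, with annotated starts 21 bases apart. Col4a1 ran from 15.26 to 17.12 in fat (median 15.62), 13.88 to 14.81 in gastrocnemius (median 14.20), 12.47 to 12.96 in liver (median 12.71) and 11.32 to 11.91 in brain (median 11.48). No 2 tissues overlapped, and each step of that order passed the test. Fat exceeded gastrocnemius 3.12-fold (log2 difference 1.64, SE 0.22, adjusted p = 9.0e-07). Col4a2 followed the same order with a smaller span, from 11.40 ± 0.21 in brain and 12.37 ± 0.21 in liver to 13.47 ± 0.34 in gastrocnemius and 13.82 ± 0.65 in fat, and its fat and gastrocnemius levels did not pass the test (0.35, SE 0.23, adjusted p = 0.19).

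Col4a6, an X-linked chain of a more restricted basement membrane network, was highest in gastrocnemius. There it ran from 12.99 to 14 (median 13.43), above all arrays of brain (10.12 to 11.35), liver (10.83 to 11.55) and fat (10.09 to 10.88). Gastrocnemius exceeded fat 7.92-fold (fat minus gastrocnemius -2.99, SE 0.24, adjusted p = 2.2e-10). Col4a5, its X-linked partner, was detected on 4 of 6 fat arrays, 1 gastrocnemius array and no brain or liver array. Col4a4, a chain known from kidney, was dim throughout, with means from 8.87 in brain to 10.49 in fat and detection on 2 to 4 of 6 arrays in each tissue.

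Of the laminin chains, 4 of 7 were tested between fat and gastrocnemius and 4 were higher in fat, as were 35% of all probes. Lamb2, a beta chain of muscle and nerve synapses and of kidney, averaged 16.35 ± 0.54 in fat, 15.55 ± 0.12 in gastrocnemius, 13.38 ± 0.28 in brain and 11.47 ± 0.37 in liver. Fat exceeded liver 29.4-fold (adjusted p = 1.6e-15). The step from gastrocnemius to fat (0.79, SE 0.21, adjusted p = 0.0024) was lost under median scaling of the arrays, at 0.25 and an adjusted p of 0.27. Lamb1, the beta chain of the most widespread laminins, averaged 15.15 ± 0.75 in fat, 13.41 ± 0.25 in gastrocnemius, 11.98 ± 0.26 in brain and 11.56 ± 0.15 in liver. Lama4, the alpha chain of endothelial and adipocyte basement membranes, averaged 11.96 ± 0.76 in fat against 9.64 ± 0.31 in brain, a 4.97-fold difference (adjusted p = 9.8e-07). Lama2, the muscle laminin chain whose loss causes a muscular dystrophy, was detected on 2 gastrocnemius arrays, 1 brain array and none of the others, and was not tested.

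Lamb3, a beta chain of the laminin that anchors epithelia, stood out in liver. It ran from 13.33 to 15.12 there (median 14.27), from 10.40 to 13.02 in fat (median 12.14), from 8.89 to 10.42 in brain and from 8.30 to 11.38 in gastrocnemius. No liver array overlapped another tissue. Liver exceeded gastrocnemius 16.7-fold (log2 difference 4.06, SE 0.42, adjusted p = 8.3e-09) and fat 4.60-fold (2.20, SE 0.42, adjusted p = 9.2e-05). Brain and gastrocnemius did not pass the test (-0.11, SE 0.42, adjusted p = 0.83).

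Col6a1 and Col6a2 encode chains of the beaded microfibrils that link cells to fibres, and their loss causes muscle disease. Col6a1 averaged 14.97 ± 0.41 in fat, 14.07 ± 0.63 in gastrocnemius, 13.27 ± 0.26 in brain and 11.25 ± 0.33 in liver, and all 6 differences between tissues passed the test. Col6a2 averaged 12.50 ± 0.45 in fat and 11.99 ± 1.07 in gastrocnemius, which did not differ beyond their spread, and was detected on 3 brain arrays and 1 liver array. Col7a1, the anchoring fibril collagen of skin, was highest in gastrocnemius, at 11.74 ± 0.58, and exceeded fat there 3.24-fold (adjusted p = 0.0011). Col26a1, a little-studied chain, was detected on 6 brain arrays and 5 gastrocnemius arrays but on 1 liver and 1 fat array. Col8a1, of the short-chain network collagens, varied more between arrays than between tissues: brain ran from 9.96 to 14.66 and gastrocnemius from 9.12 to 13.77. The 14.66 was B6 brain replicate 1, whose value carries the deposited flag 0.

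The fibril-associated collagens divided by tissue. Col19a1, a rare chain found in brain and embryonic muscle, ran from 12.26 to 12.83 in brain (median 12.50). It was not above background on any liver or fat array and was detected on 2 gastrocnemius arrays. Brain exceeded liver by at least 20.6-fold and fat by at least 21.5-fold (adjusted p = 3.9e-11 and 5.5e-11). Col9a3, a cartilage type IX chain, was likewise a brain gene here, with a mean of 11.13 and a lead over liver of at least 10.6-fold. Col14a1, which binds fibres of type I collagen, was lowest in brain, where 1 array detected it at a mean of 8.63 ± 0.67. Liver at 14.09 ± 0.20 and fat at 13.50 ± 0.61 did not pass the test against each other (0.59, SE 0.32, adjusted p = 0.12), and both exceeded gastrocnemius at 11.88 ± 0.69.

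Col18a1 and Col15a1, the multiplexins, lie in basement membranes and release fragments known to restrain vessel growth. Col18a1 was the gene of the set with the sharpest liver peak: 16.12 to 16.44 in liver (median 16.30), 12.56 to 13.66 in fat (median 12.91), 8.38 to 11.53 in gastrocnemius (median 9.03) and 8.16 to 9.14 in brain (median 8.72). Liver and fat formed separate bands, while brain and gastrocnemius had 1 detected array each, so the sizes against those tissues rest largely on signals under the noise threshold. Liver was 198-fold above brain (brain minus liver -7.63, SE 0.34, adjusted p = 1.1e-15), 119-fold above gastrocnemius and 9.85-fold above fat. Col15a1 had the opposite pattern in liver: no liver array detected it, while it averaged 11.80 ± 0.90 in fat and 11.35 ± 0.83 in gastrocnemius. Of the transmembrane collagens, Col23a1 was detected on 6 of 6 brain arrays and 1 array of each other tissue, and its second probe on 1 brain and 1 liver array. Col17a1, an epithelial anchoring collagen, was detected on 4 fat arrays.

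Fn1, fibronectin, is a cell-binding glycoprotein that the liver also releases into plasma. It ran from 17.85 to 18.50 in liver (median 18.25), 15.38 to 17.48 in fat (median 15.77), 14.40 to 16.28 in gastrocnemius (median 14.64) and 12.58 to 13.85 in brain (median 13.43). Liver and brain were the separate extremes, and fat overlapped with gastrocnemius. Liver exceeded brain 28.0-fold (brain minus liver -4.81, SE 0.31, adjusted p = 1.2e-12) and fat 4.21-fold (adjusted p = 4.2e-06).

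The other glycoproteins and the chaperone were lowest in liver or brain. Sparc, a collagen-binding glycoprotein, averaged 15.45 ± 0.56 in fat, 14.26 ± 0.92 in gastrocnemius, 14.01 ± 0.40 in brain and 10.83 ± 0.33 in liver, where 4 of 6 arrays detected it. Its brain and gastrocnemius levels did not pass the test (adjusted p = 0.46). Postn, periostin, a glycoprotein of loaded and healing connective tissue, averaged 15.01 ± 0.46 in fat and 9.26 ± 0.68 in brain, a 53.8-fold difference (adjusted p = 5.4e-09). Its gastrocnemius values ran from 10.39 to 15.76 around a median of 11.33, with the top value again from B6 replicate 2. Without that array fat minus gastrocnemius was 3.86, against 3.03 with it. Serpinh1, the chaperone that collagen needs to fold in the endoplasmic reticulum, averaged 12.30 ± 0.61 in fat and 11.71 ± 1.02 in gastrocnemius, which did not pass the test (adjusted p = 0.27), and was detected on 1 liver array.

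Of the 18 metalloproteinases, 12 were tested between brain and fat, where 8 were higher in fat and 2 higher in brain. Of all probes 32.3% and 29% were called in these directions. Between fat and gastrocnemius, 7 of 10 were higher in fat and 1 in gastrocnemius, with 35% and 24.5% of all probes. The detection rule was met by 10 metalloproteinases in fat, 5 in brain and 4 in gastrocnemius. Genes that met it in only 1 tissue of a pair entered because they were high there, so these counts are descriptions. Mmp14, a membrane-bound collagenase that activates Mmp2, was detected on every array. It averaged 16.59 ± 0.27 in fat, 15.78 ± 0.48 in liver, 14.88 ± 0.46 in gastrocnemius and 13.74 ± 0.28 in brain. Each step passed the test, though that from liver to fat (-0.81, SE 0.22, adjusted p = 0.0033) was lost under median scaling, at -0.22 and an adjusted p of 0.46.

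Mmp2, a gelatinase of connective tissue cells, was the metalloproteinase higher in gastrocnemius. It ran from 13.44 to 14.02 there (median 13.70) and from 12.54 to 13.14 in fat (median 12.79), so these arrays did not overlap. In brain and liver it was detected on 3 of 6 arrays each, with means of 8.45 ± 0.71 and 8.76 ± 0.90. Gastrocnemius exceeded fat 1.90-fold (fat minus gastrocnemius -0.93, SE 0.26, adjusted p = 0.0039) and brain 38.3-fold (adjusted p = 1.7e-14). Mmp9, the other gelatinase and a product of neutrophils and macrophages, was detected on 6 fat arrays, 2 brain arrays and no others. Fat exceeded liver by at least 4.06-fold and gastrocnemius by at least 2.59-fold.

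Mmp7, matrilysin, an enzyme of glandular epithelia and the male tract, was detected on every fat array, on 1 liver array and on no brain or gastrocnemius array. Its fat values ran from 11.08 to 15.76 (median 14.41), the widest spread of the set in that tissue among the genes named here. Fat exceeded gastrocnemius by at least 54.1-fold and brain by at least 66.6-fold (adjusted p = 1.8e-08 and 5.2e-09). The fat arrays with less Mmp7 also had lower values of the bile duct (cholangiocyte) list, which holds the epithelial genes Epcam, Krt7 and Krt19 among others, and of the testis and epididymis list. On congenic replicate 1, at 11.08, the cholangiocyte list deviated from the fat mean by -2.33 log2 units and the testis and epididymis list by -5.09. On congenic replicate 3, at 12.74, these deviations were -1.12 and -0.16, and on B6 replicate 2, at 13.64, they were 0.34 and 0.39. On the arrays at 15.18, 15.53 and 15.76 the cholangiocyte list deviated by 0.91 to 1.24 and the epididymal list by 1.39 to 1.75. Whether neighbouring tissue in the fat samples supplied the Mmp7 signal was not tested.

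Mmp11, a stromal enzyme also called stromelysin 3, averaged 14.32 ± 1.11 in fat, 12.76 ± 0.44 in gastrocnemius and 10.55 ± 0.36 in brain and was detected on no liver array. Mmp12, the macrophage elastase, averaged 11.94 in fat, at least 12.6-fold above brain and 8.34-fold above liver. Macrophage markers moved in the same direction, 6 of 7 being higher in fat than in brain, and their part in this difference was not tested. The genes higher in brain were Mmp16 and Mmp17, both membrane-anchored enzymes, with means of 10.66 and 10.22. Brain exceeded liver 6.33-fold for Mmp16 and 5.52-fold for Mmp17 (adjusted p = 3.6e-07 and 1.3e-05), each detected on 1 of 6 liver arrays, so these sizes rest largely on signals under the noise threshold. Mmp19 was a liver and fat gene, with means of 11.85 and 10.76.

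All 3 tissue inhibitors had their lowest mean in liver. Timp2, which both blocks Mmp2 and helps Mmp14 activate it, ran from 16.52 to 16.93 in brain (median 16.70), 15.03 to 16.25 in fat (median 15.78), 15.33 to 15.63 in gastrocnemius (median 15.52) and 11.76 to 12.35 in liver (median 12.19). Brain and liver were separate from the other arrays, and fat and gastrocnemius overlapped. Brain exceeded liver 24.1-fold (log2 difference 4.59, SE 0.16, adjusted p = 1.3e-17) and fat 2.01-fold (1.01, SE 0.16, adjusted p = 7.1e-06). Timp2 was thus higher in brain than in fat while Timp3 and Timp4 were lower there.

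Timp4, an inhibitor known for restricted expression in heart, muscle, fat and brain, ran from 12.37 to 14.86 in fat (median 13.57), 12.92 to 13.79 in gastrocnemius (median 13.06) and 11.81 to 12.17 in brain (median 11.92). It was not above background on any of the 6 liver arrays. Fat exceeded liver by at least 70.9-fold, gastrocnemius exceeded it by at least 54.1-fold and brain by at least 22.6-fold. Timp3, which binds to the matrix itself, averaged 12.08 ± 0.25 in fat, 10.77 ± 0.63 in gastrocnemius and 9.88 ± 0.41 in brain, and 2 liver arrays detected it. Its brain and gastrocnemius difference (-0.89, SE 0.33, adjusted p = 0.020) was lost under median scaling and without congenic gastrocnemius replicate 1 or 3, where the adjusted p ran from 0.057 to 0.058.

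Neighbouring gene lists of the matrix were counted in the liver and fat comparison, where 34.3% of all probes were higher in fat and 23.4% in liver. A gene detected in fat only entered because it was high there, so these counts are descriptions. Of 12 tested proteoglycan genes 9 were higher in fat and 2 in liver. Those higher in fat were led by Ogn and Aspn, small proteoglycans of collagen fibres. No liver array detected either, and fat was at least 52.9-fold and 32.4-fold higher. Of 12 elastic fibre genes 11 were higher in fat, led by Ltbp3 and Mfap5. Ltbp3 was detected on 2 of 6 liver arrays (liver minus fat -6.24), and Mfap5 on none, with fat at least 70.4-fold higher. Of 16 collagen processing enzymes 10 were higher in fat and 4 in liver. Lox, which crosslinks collagen, was below the noise threshold on every liver array, and fat exceeded liver by at least 39.3-fold, while Bmp1, which trims procollagen, was higher in liver (liver minus fat 2.85). Of the basement membrane partners 8 of 10 were higher in fat and 0 in liver, and of the matricellular genes 9 of 12 and 0. Of other matrix proteases and inhibitors 9 of 13 were higher in fat and 2 in liver, and of the TGF beta pathway 7 of 9 and 1. Sparcl1, the nearest relative of Sparc, was at -4.54 (adjusted p = 7.4e-18). Plat, tissue plasminogen activator, stayed under the noise threshold in liver, and fat exceeded liver by at least 34.5-fold.

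The strain comparison asked which transcripts differ between the lean congenic and B6 within a tissue, and these values were normalised among the 6 arrays of that tissue. No matrix gene passed limma's adjusted threshold in any tissue. Of the tested genes, 0 of 34 were called in brain, 0 of 25 in liver, 0 of 41 in fat and 0 of 33 in gastrocnemius, where 0% of all tested probes were called in each tissue. At an unadjusted p under 0.05 there were 4, 2, 1 and 3 matrix genes in the same order, with 9.65%, 3.27%, 3.46% and 2.81% of all probes. Genes whose congenic and B6 arrays did not overlap numbered 5, 2, 1 and 2, with 15.4%, 6.96%, 8.1% and 7.76% of all probes. The text below therefore gives the genes of smallest unadjusted p in each tissue as values. Mmp2 in liver and Col4a4 in gastrocnemius were each detected in 1 strain only. They entered the test because they were high in that strain, so their ranks by p are descriptions.

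**Figure D3:**
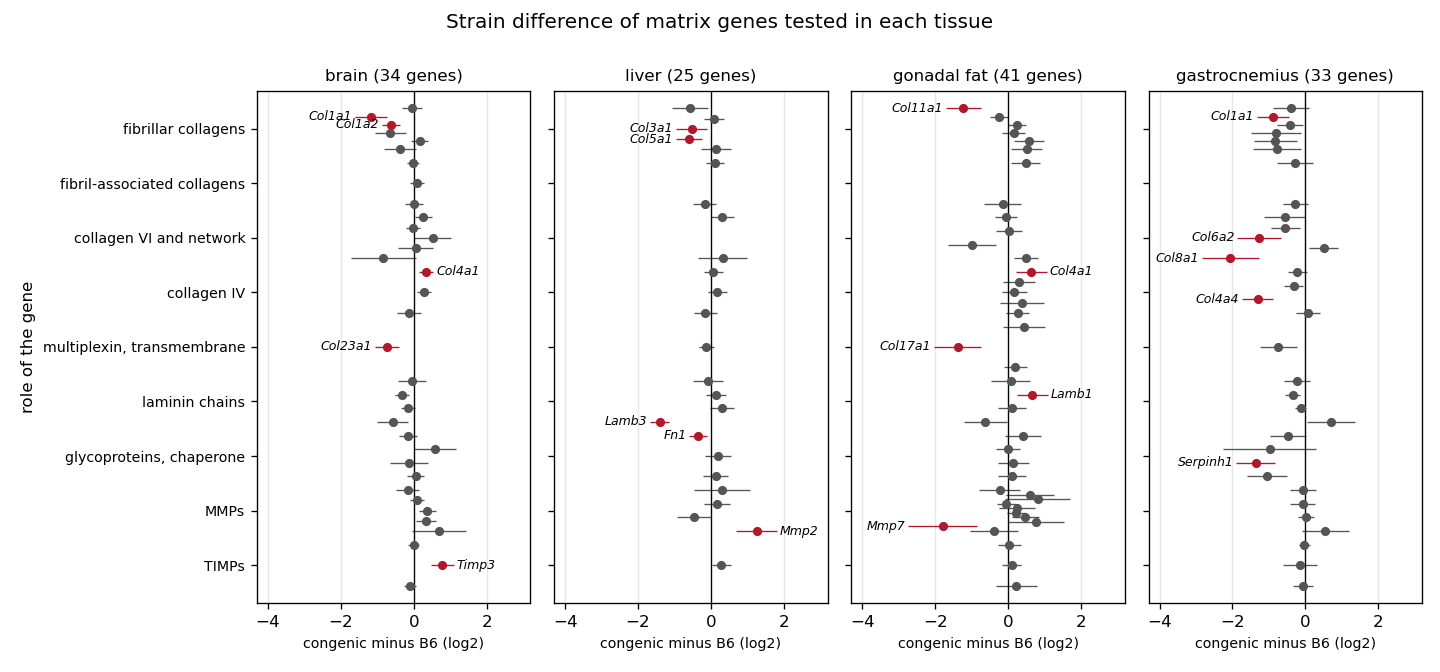
Congenic minus B6 difference (log2) of each matrix gene tested in a tissue, by role, with bars of 1 SE. Red points are the 5 genes of smallest unadjusted p in each tissue. None passed the adjusted threshold, and in gastrocnemius 28 of 33 points lie below 0.

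In brain, Col1a1 read 10.71, 10.27 and 11.29 on the congenic arrays and 10.82, 12.53 and 12.42 on the B6 arrays. Of the B6 arrays 2 were high and the third lay among the congenic ones. The neutrophil markers followed the same arrays: 6 of 6 tested lay below 0 in the congenic (median -2.40), and their deviations from the brain mean were -0.82, 2.22 and 2.24 on the B6 arrays and -0.54, -2.01 and -1.09 on the congenic ones. Macrophage markers lay below 0 in 5 of 5 (median -0.89). Their part in the collagen values was not tested. The strain difference of Col1a1 was -1.17 (SE 0.44, adjusted p = 0.48). Timp3 read 11.24, 11.01 and 11.23 in congenic and 10.31, 10.23 and 10.59 in B6 brain, without overlap, a difference of 0.79 (SE 0.31, adjusted p = 0.49). Col1a2 was at -0.62 (SE 0.25), Col23a1 at -0.73 (SE 0.33, no overlap) and Col4a1 at 0.34 (SE 0.20), with adjusted p from 0.49 to 0.58. Over the 34 genes, 16 differences were above 0 and 18 below, with a median of -0.02 beside -0.03 for all probes.

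In liver, Lamb3 had the smallest p of the set in any tissue. It read 12.97, 12.68 and 13.35 on the congenic arrays and 14.54, 14.06 and 14.63 on the B6 arrays. The congenic arrays were all lower and the groups did not overlap. The difference of -1.41 (SE 0.27) had an adjusted p of 0.74 over the 13956 probes tested. Mmp2 read 8.75, 9.23 and 8.60 in congenic and 7.81, 7.57 and 7.44 in B6 liver, and was detected on all 3 congenic and no B6 arrays. The estimated congenic level was 2.38-fold higher, with an adjusted p of 1.0, which is not a lower bound. Col5a1, Fn1 and Col3a1 were at -0.60, -0.35 and -0.53 with overlapping arrays. Congenic liver replicate 2 carried exocrine pancreas genes, whose list deviated from the liver mean by 6.04 log2 units. Without it, 12 of 22 matrix genes lay below 0 in the congenic, against 10 of 25 with it.

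In gonadal fat, Col11a1 read 7.72, 8.89 and 8.52 in congenic and 9.80, 9.37 and 9.64 in B6, without overlap (-1.23, SE 0.48, adjusted p = 0.91). All 3 B6 arrays and 1 congenic array detected it. Mmp7 read 11.34, 15.11 and 12.87 in congenic and 15.41, 13.71 and 15.61 in B6. These groups overlapped, 1 congenic array lying among the B6 ones (-1.80, SE 0.94, adjusted p = 0.91). Col17a1 was at -1.39 (SE 0.65), Lamb1 at 0.66 (SE 0.42) and Col4a1 at 0.64 (SE 0.42).

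Over the 41 genes of fat, 29 lay above 0 in the congenic and 12 below, with a median of 0.17 beside 0.01 for all probes. This imbalance rested on congenic replicate 1, the array with few epididymal transcripts. It was the highest of the 6 arrays for 25 of 41 matrix genes and for 24% of all probes. Its adipocyte markers deviated from the fat mean by 0.74 log2 units, its macrophage markers by 0.72 and its fibroblast markers by 0.48. Without it 26 of 40 matrix genes lay below 0, and the median was -0.13. The difference of Mmp7 was then -0.91, of Col11a1 -0.94, of Col17a1 -1.31, of Lamb1 0.40 and of Col4a1 0.21. Congenic replicate 1 was also the dimmest fat array, with a median deposited signal of 373.9 and 15710 probes detected. The other congenic fat arrays had median signals of 538.65 and 660.1. Those of the B6 fat arrays were 743.55, 951.8 and 814.4, so signal level in fat went with strain. The part of these cell types and of signal level in the difference was not tested.

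In gastrocnemius, most of the tested matrix genes were lower in the congenic, none past the adjusted test. Of 33 genes 28 lay below 0, with a median of -0.35 beside 0.01 for all probes. By role, 6 of 6 fibrillar collagens lay below 0 (median -0.78) and 4 of 4 of the glycoproteins and chaperone (median -1.02), against 2 of 4 metalloproteinases (median -0.03). Col4a4 read 8.47, 9.59 and 9.52 in congenic and 10.76, 10.56 and 10.20 in B6, without overlap, and was detected on no congenic array. The estimated B6 level was 2.48-fold higher (-1.31, SE 0.44, adjusted p = 1.0), which is not a lower bound. Serpinh1 read 11.01, 10.81 and 10.01 in congenic and 11.76, 13.17 and 11.01 in B6, touching at 11.01, with B6 replicate 2 far above the rest (-1.37, SE 0.53, adjusted p = 1.0). Serpinh1 and the undetected Mmp21 are the 2 genes of the set on chromosome 7, the chromosome of the marker in the strain's name. Col8a1 was at -2.06 (SE 0.78), Col6a2 at -1.27 (SE 0.59) and Col1a1 at -0.88 (SE 0.44), each with an adjusted p of 1.0.

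The imbalance in gastrocnemius rested largely on B6 replicate 2. It was the highest array for 19 of 33 matrix genes and for 21.2% of all probes. Col3a1 read 19.16 on it and 16.71 and 16.10 on the other B6 arrays, with 17.11, 16.44 and 16.02 in congenic. Postn read 15.69 on it and 9.94 and 10.61 on the other B6 arrays, with 10.79, 11.54 and 10.98 in congenic. In both genes this array stood alone above the other 5. For Col3a1 those 5 overlapped between strains. For Postn the other B6 arrays lay below every congenic array, the opposite direction to B6 replicate 2. On it the glycoproteins and chaperone deviated from the tissue mean by 2.37 log2 units, the fibrillar collagens by 1.48 and the fibril-associated collagens by 1.07. Laminins deviated by 0.11 and metalloproteinases by 0.02. Its collagen processing enzymes deviated by 0.96 and its macrophage markers by 1.45, but its fibroblast markers by 0.27 and its endothelial markers by 0.08. Without this array 18 of 32 genes lay below 0 and the median was -0.08. The difference of Serpinh1 was then -0.77, of Col8a1 -1.22, of Col6a2 -0.75 and of Col1a1 -0.33. Adipocyte markers went the other way from the matrix genes, 4 of 4 tested lying above 0 in the congenic (median 1.03), and deviated by -0.85 on this array, -0.73 on B6 replicate 1 and 1.51 on congenic replicate 2. The part of the macrophage and adipocyte markers was not tested.

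**Figure D4:**
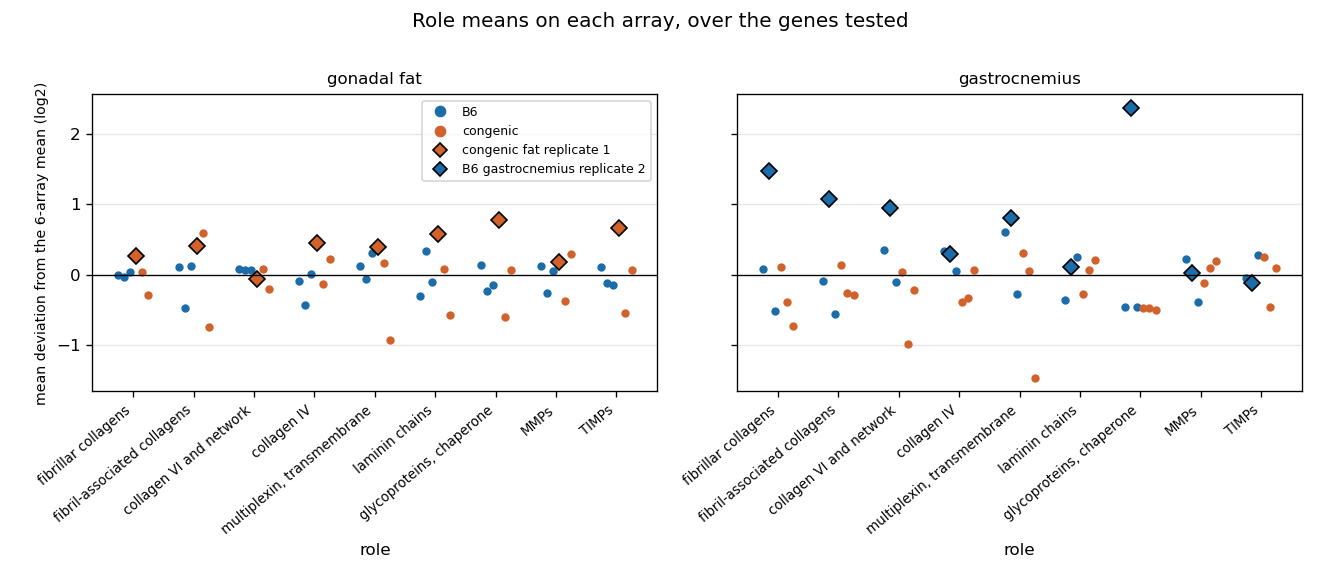
Mean deviation of each role from its 6-array mean (log2), for each array of gonadal fat and gastrocnemius, over the genes tested. Diamonds mark congenic fat replicate 1 and B6 gastrocnemius replicate 2. The B6 gastrocnemius diamond reaches 2.37 for the glycoproteins and chaperone and 1.48 for the fibrillar collagens but 0.11 for the laminins, and the fat diamond lies above 0 in all roles except collagen VI and network.

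Whether strain differences of a matrix gene differed among tissues was tested for 36 genes. None was called (limma F-test), 0.00608% of all probes were, and 5.38% of all probes had an unadjusted p under 0.05. Mmp2 had the smallest p of the set (adjusted p = 0.92) and was the 1 matrix gene with an unadjusted p under 0.05, and Lamb1 and Col4a4 followed it. Mmp2 met the detection rule in liver through the congenic arrays only, and Col4a4 in gastrocnemius through the B6 arrays only. Their ranks are therefore descriptions. Averaged over the tissues, 0 matrix genes and 0% of all probes were called, with 6.13% of all probes under an unadjusted p of 0.05. Mmp2 was at 0.59 (SE 0.18, adjusted p = 0.80), Col1a1 at -0.70 (SE 0.24, adjusted p = 0.80) and Col8a1 at -0.93 (SE 0.47, adjusted p = 0.81). The Col1a1 and Col8a1 averages include B6 gastrocnemius replicate 2. That of Col8a1 also includes B6 brain replicate 1, whose value carries the deposited flag 0. Col8a1 had the widest SD within tissues of the set, 1.38.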

How the data were processed

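Per the file headers, each deposited array table gives a Signal, an intensity on a linear scale, a signal to noise ratio, which is a score per probe, and a flag. What the flag means, which software read the arrays and whether background was removed is not stated in these sources. The deposited series matrix holds log2 values, equal to log2 of Signal plus a constant per array and blank exactly where the ratio is under 3; they served as an alternative. Per the labels' protocols, RNA was extracted with TRIzol and labelled with digoxigenin.

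Signals were background corrected (normexp, offset 50), taken to log2 and quantile normalised, among the 24 arrays for levels and tissue tests and within a tissue for strain tests. A probe was tested where the ratio was at least 3 on at least 3 of 6 arrays, in at least 1 tissue of a pair, or in at least 2 tissues for the interaction and the average. Tests used limma 3.58.1 in R 4.3.3 (lmFit, eBayes with intensity trend) with Benjamini-Hochberg adjustment over all tested probes at 0.05. They were also run on simulated arrays with independent noise for each probe. Such arrays hold no deviation shared across an array, so the simulation says nothing about that kind of spread. "At least N-fold" sets a detected tissue mean against 1 with no detecting array, taking the larger, on each array, of the probe's value and the dimmest detected signal. The result is close to the fitted fold. It is an estimate with the error of the fit, not a strict lower limit.

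Genes came from the platform annotation; 247 probes with several genes and 18348 unnamed probes were left out. A B6 fat array listed among the livers in the design text was used as fat, as its title gives it. Arrays that share a title number were treated as independent, and p-values measure the spread between these few arrays, whose number limits the precision. Text names a fixed list of members, the 2 further members of widest tissue range per role, and the 5 (or 3) members of smallest p per strain, interaction or average test. For liver and fat only, it names the 2 genes of smallest p of the proteoglycan, elastic fibre and collagen processing lists. Of the matricellular and other protease lists it names the 1 of smallest p, and of the basement membrane partners and TGF beta lists none. Col9a3, Mmp12, Mmp16, Mmp17, Mmp19 and the genes named as undetected fall outside these rules and were chosen after their values were seen. The members and lists were chosen with earlier results of these data known. Alternatives changed the background step, scaling, filter, variance trend, arrays and title-number block.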

Additional observations from a re-analysis of the deposited data

How the results depend on the processing

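No called difference of a named gene reversed under any alternative run, but medians did change sign: the strain median of liver (0.12) was -0.09 and -0.03 without congenic replicates 1 and 2, that of brain (-0.02) was 0.05 without congenic replicate 4, that of fat (0.17) was -0.13 without congenic replicate 1, and brain minus liver (0.24) was -0.15 with detection required on all arrays. With detection required on all arrays of a pair, the genes called were 9 of 13 (brain and liver), 15 of 18 (brain and fat), 15 of 16 (brain and gastrocnemius), 18 of 19 (liver and fat), 14 of 15 (liver and gastrocnemius) and 15 of 22 (fat and gastrocnemius), against 28, 41, 32, 39, 32 and 27 in the main setting, because fewer genes were tested; of all probes, 71.3%, 60.6%, 70.6%, 59.7%, 66.5% and 65.1% were then called. Leaving out 1 array gave 27 to 30, 40 to 42, 30 to 33, 36 to 39, 31 to 33 and 27 to 31. Of named tissue differences, 1208 kept their side of the threshold under other settings and 48 lost the call, and 4006 and 26 did so without 1 array. Strain, interaction and average counts of matrix genes stayed at 0 in every alternative run. Among all probes, leaving out congenic fat replicate 2 gave 275 calls in fat. Genes lower in congenic gastrocnemius numbered 50 of 66 with no filter, and 18 to 28 without 1 array, the 18 being of 32 without B6 replicate 2. In fat the count below 0 was 26 of 40 without congenic replicate 1. The last 2 kinds of count were added after seeing the data. With the title number as a replicate block (estimated correlation -0.08) the tissue counts were 28, 41, 32, 39, 32 and 27. The 9 pairs of arrays with a shared number had correlations of their deviations from -0.28 to 0.09, none over 0.1. The 99 other pairs ran from -0.31 to 0.40. These correlations compare different tissues in few pairs, so they cannot tell whether a shared number names 1 animal. Dim probes limit what can be ordered: for a gene under the noise threshold, the level and any fold against it are uncertain estimates.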
